A study of Mus musculus with 2 samples.

Results

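The genes described here encode the machinery of mitosis and cytokinesis: mitotic cyclins and kinases, the spindle checkpoint, kinesins, kinetochores, condensin and the proteins that split the cell body. The list was drawn up by function and names 50 genes, and a probe belonged to it where its platform symbol, current or older, was one of them. Of the 50, 47 genes had at least 1 named probe, 61 probes in all, among 16637 named genes on the array. Ccnb1, Espl1 and Foxm1 had no probe under their names or synonyms and were not analysed here. Cdk1 was listed under its older name Cdc2a.

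The samples were mouse embryonic fibroblasts labelled as an Xbp1 knockout cell line, put through drug-induced adipogenesis, the conversion of fibroblasts into fat cells. The day 3 sample had spent the first 72 h with IBMX (0.25 mM), which raises cAMP by blocking phosphodiesterases, with insulin (10 µg/ml), with DXM (5 µM) and with the PPARγ agonist troglitazone (5 µM). The day 0 sample stood at confluence. Both are labelled as carrying the Xbp1 knockout, no wild-type culture being analysed here, and whether the line is 1 clone is not stated. Each day was 1 single-colour array with no replicate, so no p-value was computed and every difference is a description of 2 arrays.

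Genes of this kind are transcribed in waves. They are kept silent in resting cells by a repressor complex of MuvB proteins with RB family members and E2F, and they are switched on late in the cell cycle when MuvB joins MYBL2 and FOXM1. The cyclin and CDK1 pair starts mitosis, condensin compacts the chromosomes, kinesins and kinetochores move them, the checkpoint holds the anaphase-promoting complex until all are attached, and the central spindle then guides the cleavage furrow. In the preadipocyte line 3T3-L1, confluent cells re-enter the cycle for a limited time after induction before they leave it and fill with lipid.

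On day 3 the mitotic genes stood below their day 0 level relative to the rest of the array. Of the 47, 42 were detected, meaning that the gene's brightest probe had a quantile-normalized signal above 122 on at least 1 day, 122 being the median over gene probes. Of these 42, 37 were lower on day 3 and 5 were higher, against 48.4% lower among all 10656 detected genes. Their median log2 difference, day 3 minus day 0, was -0.69, with quartiles of -1.02 and -0.19, against a median of 0.03 for all detected genes. At least 2-fold lower were 12 of the 42 (28.6%), where 10.3% of all detected genes were, and 1 gene, Ncaph, was at least 2-fold higher (2.38%), where 12.8% were. At least 1.5-fold lower were 26 (61.9%), against 21.0% of all detected genes. Bub1, Kif11, Hmmr and Nuf2 passed the threshold on day 0 only, which fixed their direction. Of the other 38 members, above the threshold on both days, 33 were lower, 11 of them 2-fold, against 8.43% of the 9434 genes above it on both days, and 1 was 2-fold higher, against 10.1%. In a bulk sample, fewer cells in mitosis and less of these mRNAs per cell cannot be told apart.

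The direction is relative to the other genes, and the day 3 array was the brighter one. Before normalization the gene probes had a median intensity of 166 on day 3 and 78 on day 0, while empty spots had a median of 0 on both. On that unnormalized scale, 22 of the 42 genes had a higher signal on day 3 and 20 a lower one, and their median difference was 0.05. With no normalization the detection filter left 41 members with a median of 0.02, while the median of all detected genes was 0.67. Which of these reflects RNA per cell cannot be told from the arrays.

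**Figure D1:**
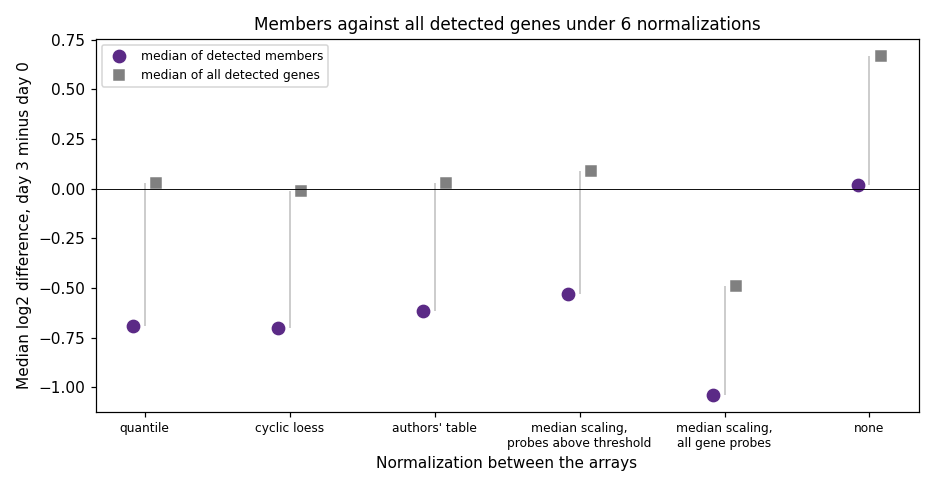
Median log2 difference, day 3 minus day 0, of the detected members (circles) and of all detected genes (squares) under 6 ways of putting the arrays on a common scale. The median of the members lies below that of all genes in every one, and above 0 (0.02) only where the arrays were not normalized and the median of all genes was 0.67.

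Relative to the median of all detected genes, the median of the members lay between -0.72 and -0.55 under the 6 normalizations shown in that plot. In that measure 34 of the 42 genes were below 0 under every normalization that gave a value. Ncaph, Ncapg and Pttg1 were above 0 under every one, and Bub1b, Kif4, Mki67, Smc4 and Spc25 had values on both sides of 0. The normalizations rescale the same arrays, and the share of all detected genes with every value below 0 was not counted. The counts of members that kept 1 sign therefore have no background.

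The counts past 2-fold followed the scaling, for the members and for the background alike. Median scaling over all gene probes put 22 of 42 members 2-fold lower, against 24.3% of all detected genes, and 0 2-fold higher, against 7.78%. Median scaling over probes above the threshold on both days put 10 of 41 lower, against 8.87%, and 1 higher, against 17.5%. Cyclic loess put 14 of 43 lower, against 11.9%, and 1 higher, against 11.4%. The authors' deposited table, which holds values for 33 of the genes, put 7 lower, against 8.46%, and 1 higher, against 9.91%. With no normalization, 1 of 41 was 2-fold lower, against 2.85%, and 2 were 2-fold higher, against 35.7%. Taken relative to the median of all detected genes, the unnormalized values put 15 of 41 lower, against 10.5%, and 0 higher, against 16.5%. In each of these settings the members' share was above the background for lower and below it for higher, except for lower genes with no normalization.

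A technical error was taken from control features printed as 5 or 6 spots. From the median SD of these features, a difference between days had an SD of 0.42 where log2 signals lay between 6 and 8. It was 0.44 between 8 and 10, 0.39 between 10 and 12 and 0.38 between 12 and 16. Pooled over the features, the SDs in the same order were 0.61, 0.78, 0.57 and 0.88. It leaves out differences between cultures, RNA extractions and hybridizations. Of the 42 genes, 28 were lower by more than the first SD, 17 by more than 2 times it and 23 by more than the pooled one, and Ncaph was the 1 gene higher by more than either. The quartiles of the difference over all detected genes were -0.47 and 0.56, so many other genes passed the first SD too. The share of all detected genes past each SD was not counted, so these counts have no background.

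The cells matched their label in part of what could be checked. On both days all 10 fibroblast markers examined exceeded the threshold, and 1 of 8 adipocyte markers did, Lpl, with 59293 on day 3, where its spot was saturated, and 8480 on day 0. The other adipocyte markers were below it on both days. Adipoq had 120.5 on day 3 and 12 on day 0, Fabp4 59.5 and 10.5, Cidec 52.5 and 12, and Plin1 44 and 21.5. Lep had 15 on day 3 and 6 on day 0, Cd36 11.5 and 10.5, and Cfd 7.5 and 15.5. Above the threshold on at least 1 day were 3 of 6 macrophage, 2 of 5 endothelial and 1 of 5 epithelial markers. Cd14 had 39698.5 on day 3 and 16036 on day 0, Cd68 had 268 and 198.5, Pecam1 had 568.5 and 189.5, Csf1r had 51.5 and 269.5, Kdr had 17.5 and 168, and Krt18 had 114.5 and 148. Their part in the results was not tested. The leukocyte gene Ptprc (1.5 on day 3 and -0.5 on day 0) and the epithelial gene Epcam (1.5 and 2) were at background. The Xbp1 probe read 13561 on day 3 and 20936 on day 0, but where it lies relative to the deletion is unknown here, so it does not check the knockout.

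Many genes of this kind are known to share promoter elements, and the sequence around their start sites was examined. RefSeq promoter windows of build GRCm38.p6, 250 bases before to 50 after the start, were matched by symbol for 41 of the 50 genes. Ccna2, Cdc25c, Aurkb, Incenp, Spc24, Tpx2, Smc4, Kif20a and Foxm1 had no entry. Shown are 100 bases before to 50 after the start, 5′ to 3′ on the gene's strand, for 5 genes that were at least 2-fold lower on day 3 and hold both elements (Cdca8, Racgap1, Kif23, Ccnb2, Cdc20), for Birc5, which was 2-fold lower and holds neither, and for Ncaph, which was 2-fold higher. Capitals mark the CHR element (TTTGAA in each of these) and the CCAAT box (CCAAT, or ATTGG where it lies on the other strand). In Cdca8 the 2 elements overlap.
Cdca8: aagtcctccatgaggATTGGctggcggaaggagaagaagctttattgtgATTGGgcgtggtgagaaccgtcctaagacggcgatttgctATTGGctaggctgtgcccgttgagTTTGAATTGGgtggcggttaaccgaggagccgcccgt
Racgap1: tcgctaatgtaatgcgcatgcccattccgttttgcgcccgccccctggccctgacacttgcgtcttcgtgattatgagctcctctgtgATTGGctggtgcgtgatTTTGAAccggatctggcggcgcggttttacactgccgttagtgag
Kif23: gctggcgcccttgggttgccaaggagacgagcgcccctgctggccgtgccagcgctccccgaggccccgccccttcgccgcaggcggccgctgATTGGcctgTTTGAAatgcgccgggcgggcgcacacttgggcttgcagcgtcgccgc
Ccnb2: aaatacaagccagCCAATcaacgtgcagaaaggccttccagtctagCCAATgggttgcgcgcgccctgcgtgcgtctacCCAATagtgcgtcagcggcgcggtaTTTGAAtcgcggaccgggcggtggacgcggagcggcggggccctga
Cdc20: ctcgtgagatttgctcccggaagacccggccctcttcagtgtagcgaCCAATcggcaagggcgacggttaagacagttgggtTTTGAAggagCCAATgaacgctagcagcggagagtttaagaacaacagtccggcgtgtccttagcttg
Birc5: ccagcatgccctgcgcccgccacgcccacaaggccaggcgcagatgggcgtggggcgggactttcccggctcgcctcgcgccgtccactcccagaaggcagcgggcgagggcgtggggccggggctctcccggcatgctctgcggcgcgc
Ncaph: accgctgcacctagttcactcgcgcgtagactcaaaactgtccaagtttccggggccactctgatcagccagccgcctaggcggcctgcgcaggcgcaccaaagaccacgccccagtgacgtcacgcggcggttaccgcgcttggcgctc

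The windows lie at chr4:124936868-124937017, minus strand (Cdca8), chr15:99651607-99651756, minus strand (Racgap1), chr9:61946750-61946899, minus strand (Kif23), chr9:70421505-70421654, minus strand (Ccnb2), chr4:118437294-118437443, minus strand (Cdc20), chr11:117849137-117849286, plus strand (Birc5) and chr2:127133905-127134054, minus strand (Ncaph). The CHR element, cell cycle genes homology region, is the site through which the MuvB subunit LIN54 contacts DNA, and the CCAAT box is the site of the factor NF-Y. Each of the first 5 windows holds 1 CHR element, with 4 CCAAT boxes in Cdca8, 3 in Ccnb2, 2 in Cdc20 and 1 each in Racgap1 and Kif23.

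The CHR element was searched as TTTGAA or TTCGAA, the CCAAT box as CCAAT and an E2F-like site as TTCGCGC or TTGGCGC, each on both strands of the 300 bases. A CHR match was held by 32 of 41 members (78.0%), against 21.7% of the 27025 genes in the promoter table and 16.6% of the 8648 detected array genes with an entry. A CHR match within 50 bases of the start was held by 29 members (70.7%), against 6.12% of all genes in the table. CCAAT was held by 33 members (80.5%), against 41.1% of genes in the table, and the E2F-like site by 7 (17.1%), against 4.47%. Among detected genes alone the E2F-like site was held by 4 of 35 members (11.4%), against 7.76%. Both CHR and CCAAT were held by 29 members (70.7%), against 9.65%. A match is a run of letters and not a binding site measured here.

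Members with and without a CHR match both had medians below 0. As read, the 25 detected members with both elements had a median log2 difference of -0.79, with 7 of them 2-fold lower. The 7 detected members with no CHR match had a median of -0.94, with 3 of them 2-fold lower and Ncaph 2-fold higher. Bub1, Kif11 and Hmmr of the first group and Nuf2 of the second passed the threshold on day 0 only. Hmmr gives the first median and Nuf2 is among the 3, and each was at least 1.04-fold lower. Medians at the bound were not computed, so the 2 groups cannot be ranked. Among detected genes outside the list, the 682 with both elements had a median of 0.09, and 8.94% of them were 2-fold lower, against 10.1% of all 8613 other detected genes with an entry. These comparisons were chosen after the values were seen and carry no test.

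With the threshold lowered to the 99th percentile of empty spots, 12, the 5 members below 122 were counted too. Of the 47, 14 were then 2-fold lower, against 11.9% of 15046 genes, and 1 was 2-fold higher, against 14.9%, with a median of -0.69. The added genes were Nek2 and Kif20a, whose unnormalized signals were 11 and 28 on day 3 and 12 and 20 on day 0.

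**Figure D2:**
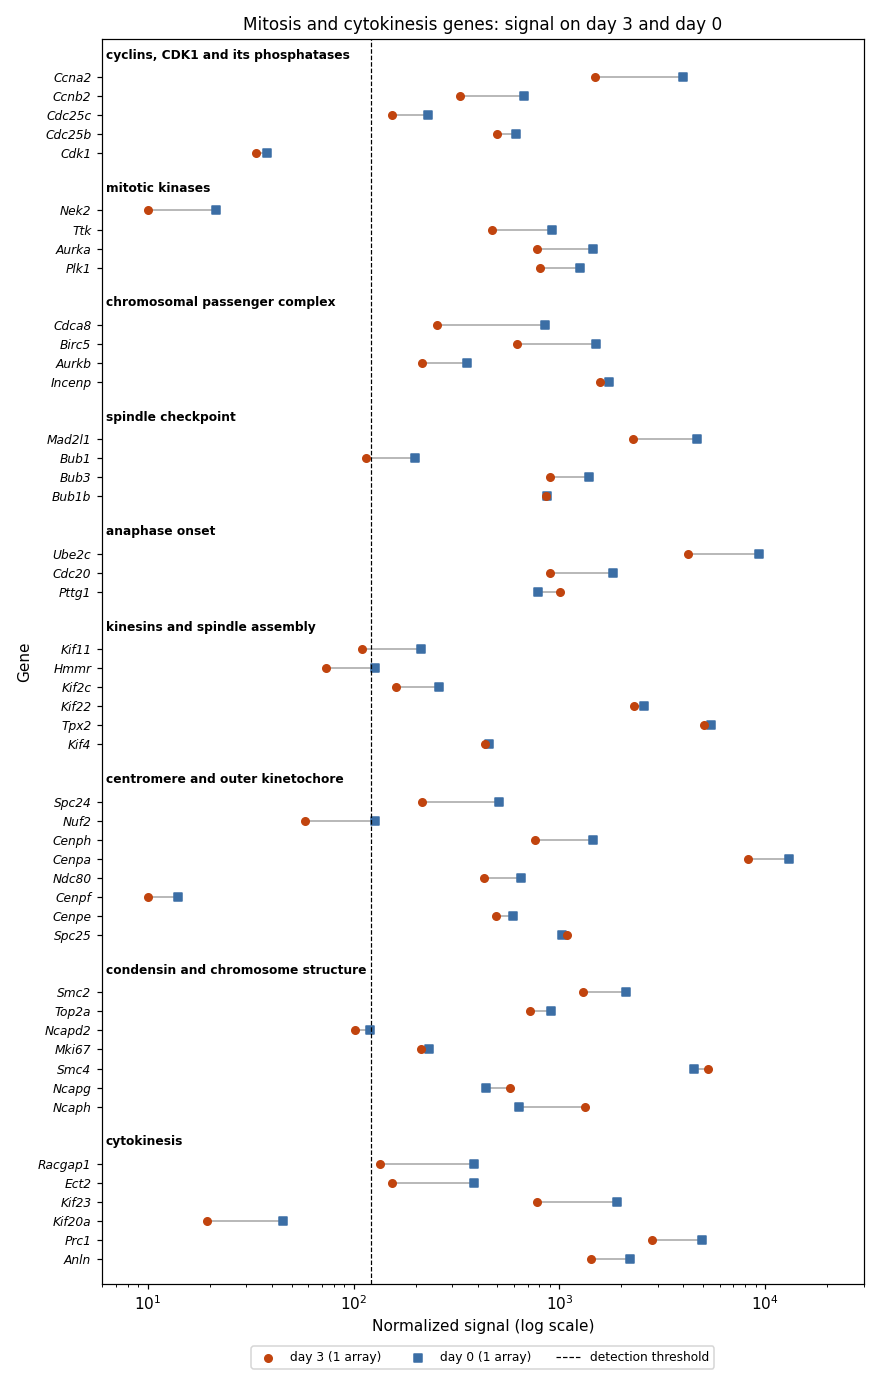
Quantile-normalized signal on a log axis of each gene's brightest probe on day 3 (circles) and day 0 (squares), 1 array each, grouped by role; signals under the floor of 10 are drawn at 10. The day 3 point lies left of the day 0 point for 42 of the 47 genes, and right of it for Ncaph, Ncapg, Smc4, Pttg1 and Spc25.

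Among the cyclins, Ccna2, whose product drives S phase and entry into mitosis, read 1494.5 on day 3 and 3980.5 on day 0 (-1.41, 2.66-fold lower). Ccnb2, one of the B-type partners of CDK1, read 328 on day 3 and 674.25 on day 0 (-1.04). Of the phosphatases that activate CDK1, Cdc25c gave 153.5 on day 3 and 229.5 on day 0 (-0.58), and Cdc25b gave 500 and 614 on those days (-0.30, within the repeat-spot SD of 0.44). The probe for Cdk1 itself was below the threshold on both days, at 33.5 on day 3 and 38 on day 0, so no fold is given.

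The 3 detected mitotic kinases were each lower by less than 2-fold. Ttk, the checkpoint kinase also called MPS1, read 473 on day 3 and 923 on day 0 (-0.96), Aurka, the centrosomal Aurora kinase, 779.75 and 1459.75 (-0.90), and Plk1, which acts from mitotic entry to cytokinesis, 803.5 and 1258.25 (-0.65, within the pooled SD of 0.78). Nek2, a kinase of centrosome separation, was near the background on both days (7.5 on day 3 and 21.5 on day 0).

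The chromosomal passenger complex places Aurora B on centromeres and later on the central spindle, and its 4 genes were all lower on day 3, by very different amounts. Cdca8, which encodes borealin, had the largest difference of any detected member by its brightest probe, with 255 on day 3 and 847.5 on day 0 (-1.73, 3.32-fold lower). Birc5, which encodes survivin, read 620.5 and 1513.25 on those days (-1.29), its second probe gave -1.44, and its dimmest, below the threshold on day 3, was at least 2.58-fold lower. The kinase gene Aurkb read 215.5 on day 3 and 354.5 on day 0 (-0.72), and the scaffold gene Incenp 1566 and 1732 (-0.15, within the repeat-spot SD of 0.39). The second probe of Cdca8 did not reach the threshold on either day, and with the median of a gene's probes Cdca8 was at -1.11.

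Of the spindle checkpoint genes, Mad2l1, the inhibitor of CDC20, had 2285.5 on day 3 and 4666.5 on day 0 (-1.03). Bub1, a kinase at the kinetochore, was below the threshold on day 3 with 114.5 and above it on day 0 with 198.5, so it was at least 1.63-fold lower. Bub3 had 900.75 on day 3 and 1385.75 on day 0 (-0.62). Bub1b, which encodes BUBR1, had nearly equal signals of 858.5 and 865.5 (-0.01). Of the 4, only Mad2l1 passed 2-fold.

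The genes of anaphase onset split. Ube2c, the ubiquitin-conjugating enzyme of the anaphase-promoting complex, read 4209.5 on day 3 and 9299.5 on day 0 (-1.14), and the activator gene Cdc20 read 903 and 1814.75 (-1.01, with -1.55 by a second probe and at least 1.16-fold lower by its dimmest). Pttg1, which encodes securin, the inhibitor of separase, differed in the other direction, with 1008 on day 3 and 790 on day 0 (0.35, within the repeat-spot SD of 0.44).

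Of the 6 detected kinesin and spindle genes, 3 were at least 1.5-fold lower as read, against 21.0% of all detected genes, and 3 were near 0. The median of the 6 was -0.43 as read and -0.14 at the bound, since Kif11 and Hmmr passed the threshold on day 0 only. Kif11, the motor that pushes the spindle poles apart, was 109.5 on day 3 and 212.5 on day 0, at least 1.74-fold lower. Kif2c, a microtubule depolymerase, was 161.5 on day 3 and 260 on day 0 (-0.69), and Hmmr, a spindle-associated hyaluronan receptor, was 73.5 and 127, just above the threshold on day 0, so that it was at least 1.04-fold lower. The chromosome-arm motors Kif22 (2305.5 on day 3 and 2582 on day 0, -0.16) and Kif4 (436 and 456.5, -0.07) and the Aurora A activator Tpx2 (5035 and 5476.25, -0.12) differed by less than the repeat-spot SD. A second, dimmer probe of Kif4 was at least 1.25-fold lower.

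At the kinetochore, the 4 subunits of the NDC80 complex, which grips the microtubule end, differed by unequal amounts. Spc24 read 215.5 on day 3 and 509.5 on day 0 (-1.24, and at least 3.03-fold lower by its other probe), Ndc80 432.5 and 648 (-0.58), and Spc25 1082.5 and 1028 (0.07). Nuf2 was 58 on day 3 and 127 on day 0, a 2-fold difference as read (-1.13) that shrinks to at least 1.04-fold at the threshold, and without it 11 members were 2-fold lower, against 8.51% of all detected genes counted that way (1 was 2-fold higher, against 10.2%). Cenpa, the histone variant that marks centromeres, read 8268.5 on day 3 and 12999.5 on day 0 (-0.65), and the inner kinetochore gene Cenph 757.5 and 1455.25 (-0.94). The motor gene Cenpe read 493.5 and 597.5 (-0.28, and -0.18 by another probe), and Cenpf was at background with 3 on day 3 and 14 on day 0.

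The condensin and chromosome structure genes were the role group with no net shift: of 6 detected, 3 were lower and 3 higher, with a median of 0.05. Ncaph, which encodes the kleisin subunit that closes the condensin I ring, read 1332.25 on day 3 and 637 on day 0 (1.06, 2.09-fold higher). Ncapg, a HEAT-repeat subunit of the same complex, read 572.5 and 441 (0.38), and the ATPase subunit gene Smc4 read 5281.5 and 4482 (0.24), both within the repeat-spot SD. The partner ATPase gene Smc2 was lower, with 1303 on day 3 and 2104 on day 0 (-0.69, and -1.46 by its other probe), and Ncapd2 was under the threshold on both days (102 on day 3 and 120.5 on day 0). Top2a, the topoisomerase that untangles sister chromatids, read 720 on day 3 and 910 on day 0 (-0.34). Mki67, whose product Ki-67 coats mitotic chromosomes and is the common marker of dividing cells, read 211.5 and 233 (-0.14), and its second detected probe was at least 1.36-fold lower.

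Cytokinesis genes had the lowest median of the role groups, -1.29. All 5 detected members were at least 1.5-fold lower on day 3, against 21.0% of all detected genes. Racgap1 read 134 on day 3 and 383.5 on day 0 (-1.52), and Kif23 read 777 and 1894.5 (-1.29), and their products MgcRacGAP and MKLP1 together form centralspindlin. Ect2, the RhoA exchange factor that centralspindlin recruits to the division plane, read 153 on day 3 and 386 on day 0 (-1.34). Prc1, which bundles the central spindle, read 2802.25 on day 3 and 4916.5 on day 0 (-0.81). Anln, which encodes the furrow scaffold anillin, read 1431 and 2193.5 (-0.62), while its dimmer probe, below the threshold on day 3, was at least 2.84-fold lower. The probe for Kif20a, a further central spindle kinesin, was below the threshold on both days (19.5 on day 3 and 45.5 on day 0).

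**Figure D3:**
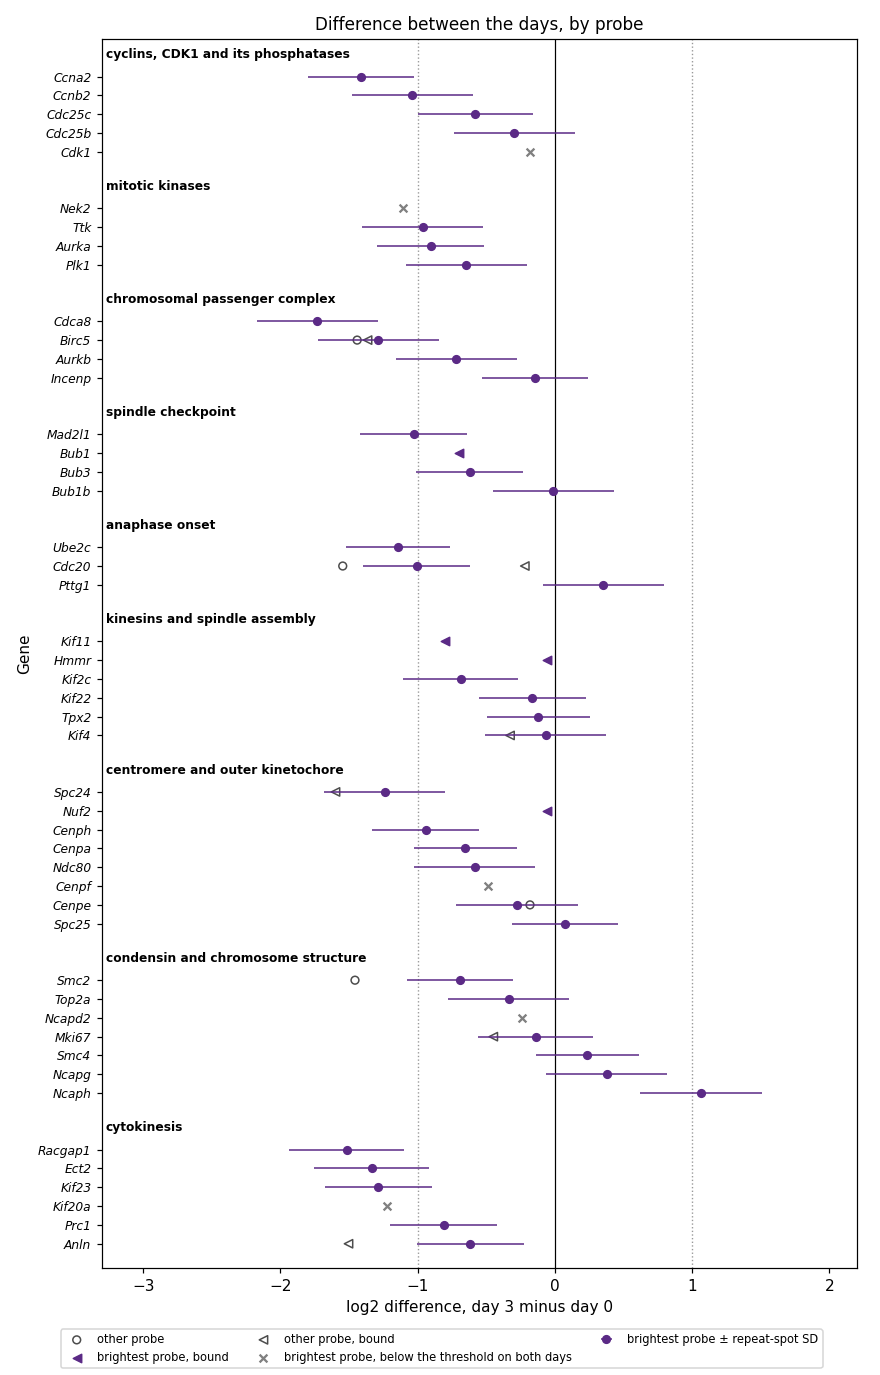
log2 difference, day 3 minus day 0, of each gene's brightest probe (filled circles, with the repeat-spot SD as bars), of its other probes above the threshold on both days (open circles), and of genes below the threshold on both days (crosses), grouped by role; triangles are bounds for probes above the threshold on day 0 only, whose difference may lie further left, and dotted lines mark 2-fold. The cytokinesis genes lie furthest left as a group, the condensin genes straddle 0, and Ncaph lies right of the 2-fold line.

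Second probes could be compared where both probes were above the threshold on both days, which was so for 4 members, Birc5, Cdc20, Cenpe and Smc2. All 8 of these probes were lower on day 3. Of 813 other genes with several such probes whose brightest probe was lower, 74.9% had all of them lower. The differences of 1 gene's probes spanned 0.09 to 0.77, with a median span of 0.35, against 0.57 over all 1603 genes with several such probes. In 3 of the 4 the brightest probe, which stands for the gene here, gave the smallest difference, as it did in 53.5% of those 1603 genes. A further 6 probes of members passed the threshold on day 0 only and give no count here. With the median of all its probes for each gene, 14 members were 2-fold lower, against 10.8% of all detected genes, and 1 was 2-fold higher, against 11.3%. The median of the 42 was then -0.75.

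As read, the median difference was alike in bright and dim members. The 15 members whose mean signal exceeded the median of detected genes had a median difference of -0.69, with 5 of them 2-fold lower, and the 27 dimmer members had a median of -0.69, with 7 of them 2-fold lower. The 27 include Bub1, Kif11, Hmmr and Nuf2, which passed the threshold on day 0 only, and Nuf2 is among the 7. The median of the dimmer members at the bound was not computed, so the likeness holds only for values as read. The 2-fold shares of bright and of dim genes over the whole array were not counted, so these counts have no background.

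Further genes of mitosis were read from 9 lists drawn up by role, with list medians between -0.87 and 0.11. Over all 9, 133 genes had a probe and 118 passed the threshold. Of the 118, 15 (12.7%) were 2-fold lower, close to the 10.3% of all detected genes, and 6 (5.08%) 2-fold higher, against 12.8%, with a median of -0.23. With signals below the threshold set to it, 11 were 2-fold lower, against 8.51%. No difference between lists was tested.

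**Figure D4:**
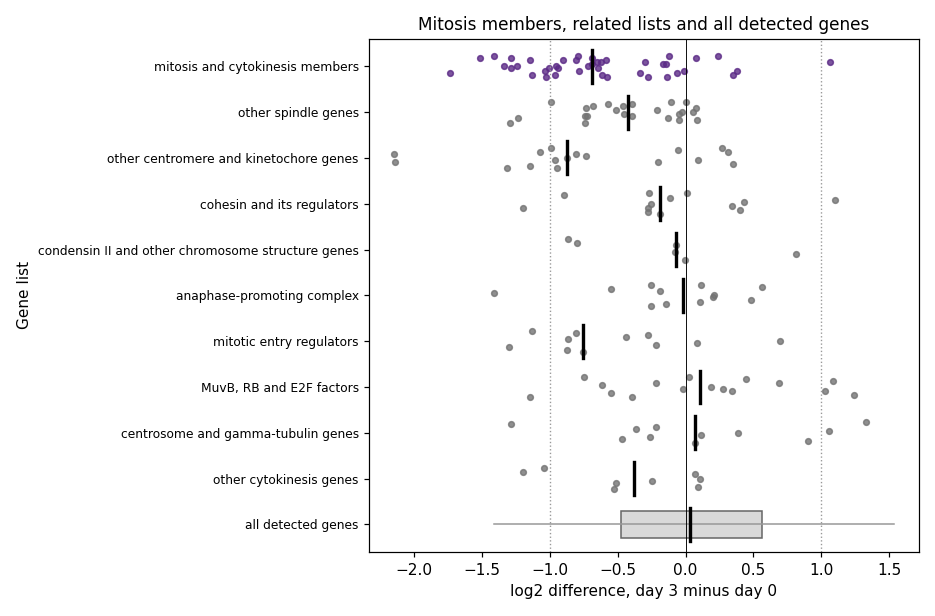
log2 difference, day 3 minus day 0, of every detected gene in the mitosis and cytokinesis list (top) and in 9 related lists, with the list's median as a black bar; the bottom row gives all detected genes as a box between the quartiles, with a line between the 5th and 95th percentiles. The medians of the other centromere genes (-0.87) and mitotic entry regulators (-0.75 as read, -0.44 at the bound) lie left of 0, as does that of the members (-0.69 as read, -0.65 at the bound), and those of the anaphase-promoting complex (-0.02), centrosome (0.07) and MuvB, RB and E2F lists (0.11) lie beside that of all genes (0.03).

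Other centromere and kinetochore genes were lower in 13 of 17 detected cases, against 48.4% of all detected genes, with a median of -0.87. Of the 17, 5 were 2-fold lower as read and 3 at the bound, against 10.3% and 8.51%. Cenpc1, the platform protein on which the kinetochore is built, read 207.5 on day 3 and 913.5 on day 0 (-2.14), and Knl1, the docking site of the BUB proteins, read 231.5 and 577.5 (-1.32). Cenpi and Cenpn, of the constitutive centromere network, did not reach the threshold on day 3, Cenpi being at least 1.96-fold and Cenpn at least 1.98-fold lower.

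Mitotic entry regulators had a median of -0.75, which was -0.44 with signals below the threshold set to it, since 3 of the 11 detected passed on day 0 only. As read, 2 were 2-fold lower, Wee1 and Melk, against 10.3% of all detected genes, and 1 at the bound. Relative to all genes the median lay between -0.83 and -0.37 under the 6 normalizations. Wee1, the kinase that holds CDK1 inactive, read 1936 on day 3 and 4250.5 on day 0 (-1.13). The kinase gene Pbk read 1047.5 and 1913 (-0.87), Melk was at least 1.14-fold and Gtse1 at least 1.66-fold lower. Other spindle genes had a median of -0.42, or -0.35 at the bound, with 20 of 24 lower, against 48.4% of all detected genes. Of the 20, 2 passed the threshold on day 0 only, Kif18a among them, which fixed their direction. Of the 24, 2 (8.33%) were 2-fold lower, which is below the 10.3% of all detected genes. These were Sgo1, the protector of centromeric cohesin (149 on day 3 and 366 on day 0, -1.30), and Ska2 (569 and 1338, -1.23). Kif18a was at least 1.23-fold lower, and Aspm, a spindle pole gene, gave 198.5 and 332.5 (-0.74).

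Among other cytokinesis genes the median was -0.38, and 2 of 8 detected were 2-fold lower, against 10.3% of all detected genes. These 2 were Shcbp1 (639.5 on day 3 and 1468.5 on day 0, -1.20) and the abscission gene Cep55 (629.5 and 1300, -1.05). The genes of membrane scission, which serve other membranes too, differed less, as in Chmp2a (-0.53) and Pdcd6ip (-0.51).

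The list for the anaphase-promoting complex held its subunits and also Fzr1, Ube2s and Fbxo5, which are not subunits. This list differed little between days, with a median of -0.02 and 11 of 12 detected genes within 1.5-fold, against 54.9% of all detected genes. Cdc27 (0.56), Anapc10 (-0.55, but 0.36 by another probe above the threshold on both days) and Anapc2 (0.48) differed most among the subunits. The exception was Fbxo5, which encodes the inhibitor EMI1 and was only just above the threshold on day 0 (46.5 on day 3 and 124 on day 0), at least 1.02-fold lower. Cohesin genes had a median of -0.19, with Cdca5, which encodes sororin, lower (397.5 on day 3 and 911.5 on day 0, -1.20), Rad21, the cohesin kleisin, higher (4708.25 and 2192.25, 1.10), and the loader Nipbl at -0.90 by its brightest probe and 0.47 by the other. Of the condensin II and chromosome structure genes, 0 of 6 detected were 2-fold different, where 10.3% of all detected genes were lower and 12.8% higher. Ncaph2, the condensin II counterpart of Ncaph, was higher (2995.5 on day 3 and 1708.75 on day 0, 0.81, and 0.65 by its other probe), Cdca2 was lower (-0.80), and Ncapg2 was at least 1.27-fold lower.

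Among the factors that control these genes, 3 of 16 detected were 2-fold higher, against 12.8% of all detected genes, and 1 was 2-fold lower, against 10.3%, with a median of 0.11. Of the 16, 7 were lower and 9 higher by any amount, where 48.4% of all detected genes were lower. These counts are near the background, and the genes named next are those with the largest differences. The retinoblastoma gene Rb1 read 1158.5 on day 3 and 489.5 on day 0 (1.24), its relative Rbl2, which encodes the p130 protein of the repressor complex in resting cells, 3887 and 1832 (1.09), and the MuvB subunit gene Lin37 658 and 322.5 (1.03). The histone-binding MuvB subunit gene Rbbp4 was lower, with 3803.5 on day 3 and 8407.75 on day 0 (-1.14). Centrosome genes had a median of 0.07. Tubg1, the gamma-tubulin gene, was higher (5991.5 on day 3 and 2381 on day 0, 1.33), as were Cenpj (440.5 and 211.5, 1.06) and Pcnt (534 and 285.5, 0.90), and Plk4, the kinase that starts centriole duplication, was lower (250 and 610.75, -1.29). Relative to all genes, each of these control and centrosome genes that differed by at least 2-fold kept its sign under the 6 normalizations. How often other genes that differed by at least 2-fold kept theirs was not counted.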

How the data were processed

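Per the labels' protocols, total RNA was column-purified, and 1 µg was amplified and labelled by Phalanx. The authors deposited a linear intensity for every one of 39200 spots on each array, apparently background-subtracted, since 7402 empty spots had a median of 0, and a series table of normalized intensity for 11482 of 29922 gene probes. No source used here gives the scanner, the background method or that normalization. Gene probes were quantile normalized with limma 3.58.1 (R 4.3.3), floored at 10 and put on the log2 scale. Platform symbols were updated through a GRCm38.p6 gene table: of 21020, 17558 were current, 3410 matched a synonym and 52 matched neither, and 8902 probes had no symbol. Each gene was read from its brightest probe by mean log2 signal. Below the threshold of 122 on 1 day, a fold is a bound against it. With 1 array a day there was no test. The code that makes the calls was tested on simulated data. Every member was named, and up to 4 detected genes of each related list, those with the largest differences. Members and lists were chosen with earlier results of these data known. The number of arrays limits the precision. Alternatives changed the normalization, offset, floor, filter, probe choice and fold.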

Additional observations from a re-analysis of the deposited data

How the results depend on the processing

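The number of members at least 2-fold lower on day 3, 12 in the setting reported, was 22 after scaling to the median of all gene probes, where all detected genes had a median of -0.49, 1 with no normalization, 7 in the authors' value table and 26 at 1.5-fold. It stayed within 1.5 times of 12 under the other alternatives. The number at least 2-fold higher, 1, was 0 under median scaling over all gene probes and with no normalization less the median of all genes, and 2 with no normalization. The median of the members, -0.69, was -1.04 under median scaling over all gene probes, -0.53 under median scaling over probes above the threshold on both days, 0.019 with no normalization and -0.55 under the first of these less the median of all genes. The median of the related lists, -0.23, was -0.79 under median scaling over all gene probes and 0.34 with no normalization. The settings that subtract the median of all genes from another normalization were added after the data were seen. Of 768 values of single members under 19 alternatives, 72 moved by more than the repeat-spot SD, and 0 of those called 2-fold changed sign. Such changes were not counted for all detected genes, so these counts have no background. No paired analysis was possible because each day has 1 sample. Signals near the threshold of 122 limit the folds of the dimmest genes.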

Other observations

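The condensin genes that stood higher on day 3 were Ncaph and Ncapg, with Smc4, while Smc2 was lower by both of its probes. Of these, Ncapg (0.38) and Smc4 (0.24) were within the repeat-spot SD. Relative to all genes, Smc4 had values on both sides of 0 across the normalizations. The kleisin genes of 3 related complexes stood higher on day 3: Ncaph of condensin I (1.06), Ncaph2 of condensin II (0.81 and 0.65 by its probes) and Rad21 of cohesin (1.10). They were set side by side after their values were seen, and each rests on 1 array a day.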
